A study of Mus musculus with 31 samples.

Results

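Cultured neural stem cells (NSC) of the hindbrain, taken around the IV ventricle, were compared with those of the forebrain, taken from the subventricular zone (SVZ). The 6 arrays of the comparison, 3 per region, were chosen by their titles from the 31 arrays of the study. Both groups were neurospheres, free-floating clonal aggregates grown in epidermal growth factor and fibroblast growth factor 2, from C57BL/6 mice at postnatal day 7. The sample names mark both groups as wild type, and no agent or allele set the groups apart. The other arrays of the study hold NSC from cerebellar white matter (3 arrays) and cultures and tissues of Ptch-mutant medulloblastomas, a tumour of the cerebellum. The cerebellar NSC were raised in the same way from the same strain and age, and their values are given for some of the genes. The replicates are labelled biological, but nothing says which cultures came from separate animals, so the p-values measure the spread between these cultures.

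Region is written into the neural tube early. Signals from its ends and midline switch on transcription factors that divide it into forebrain, midbrain and hindbrain, and cells of each division pass that identity on to their progeny. Six3, Emx2 and Lhx2 are among the factors that build the forebrain, Gbx2 and the Iroquois (Irx) and Hox homeobox genes act in the hindbrain, and Otx2 marks the territory in front of the boundary between midbrain and hindbrain. The SVZ is the large germinal zone of the postnatal forebrain, which makes olfactory bulb interneurons and glia. Neurosphere culture removes cells from their tissue and its signals, so a comparison of spheres from 2 regions asks which differences are still present under 1 set of culture conditions.

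Expression was given as RMA log2 intensities, so that a step of 1 doubles the signal, and differences are IV ventricle minus SVZ ± SE of the limma fit over the 9 NSC arrays. A gene was called at a Benjamini-Hochberg adjusted p under 0.05. Of 18194 genes, each represented by 1 probe set, 139 were called (0.764%), of which 64 were higher in IV ventricle NSC (0.352%) and 75 were lower (0.412%). At an unadjusted p under 0.05 there were 864 higher and 866 lower genes. In all 139 called genes the 3 IV ventricle values did not overlap the 3 SVZ values, against 15.2% of all genes. Among the called genes 101 differed by at least 2-fold and 31 by at least 4-fold, while the median difference over all genes was 0.01. The medians of the 6 arrays lay between 3.19 and 3.22, and the number of arrays limits the precision. Calls were repeated with each of the 6 cultures left out in turn, and 45 of the 139 were made every time. Of these 45, 17 were also called in a wider fit that added tumour cultures to make 19, 23 within the date mark that holds most NSC arrays (with 1 IV ventricle culture, assumed to vary like the others), and 13 in both. Y-linked genes on the 19 arrays of the study without Y signal read 0.72 to 1.67, a guide to probe sets without signal. For a gene whose lower group mean lay at or under 1.67, that value stands in for the lower mean, and the difference is written as "at least". Whether a lower level means fewer cells of a kind or less RNA per cell cannot be told apart in these bulk cultures.

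**Figure D1:**
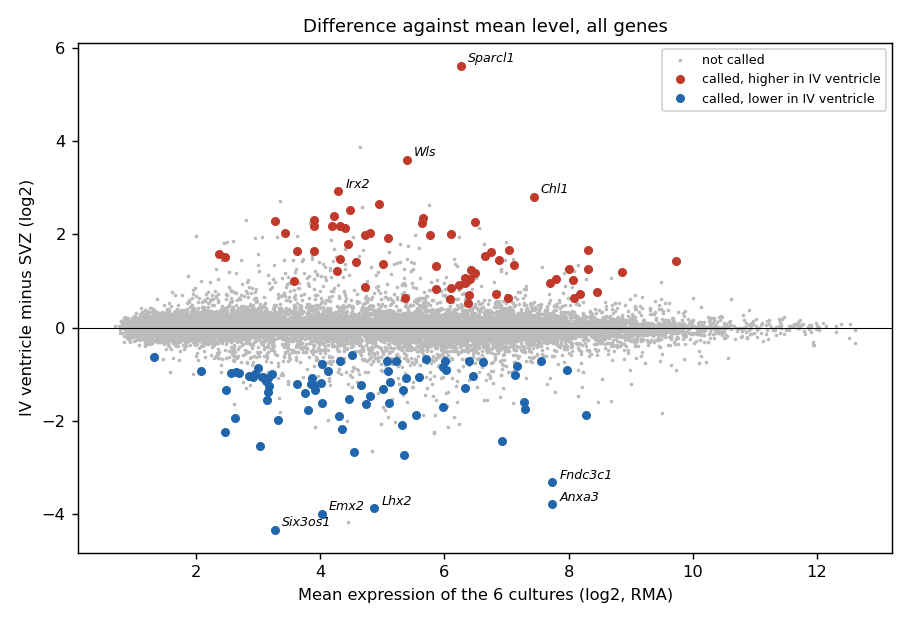
Difference between the means of 3 IV ventricle and 3 SVZ cultures (log2, vertical axis) against the mean of the 6 cultures (log2, horizontal axis), 1 point per gene. Coloured points are the 64 called higher (red) and 75 called lower (blue) genes, and grey points were not called. Points show the measured means, so genes at the level without signal, such as Six3os1 (lower by at least 3.77), are plotted without their bound, and Sparcl1 stands highest at 5.62.

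The cultures of both groups carried the transcripts that define neural stem and progenitor cells. Nes, the intermediate filament of neural progenitors, read 8.89, 9.51 and 9.11 in IV ventricle cultures 1 to 3 and 9.25, 9.77 and 9.38 in SVZ cultures 1 to 3. Sox2, a factor that keeps cells in the progenitor state, read 9.80 to 9.90 and 9.79 to 9.95, and the proliferation antigen Mki67 differed by -0.01 (adjusted p = 0.994). Of 25 neural stem and radial glial markers 0 were called and 5 were lower at an unadjusted p under 0.05. Their median difference was -0.25, with 21 of 25 below 0. Of 34 cell cycle and mitosis genes 0 were called, with a median of 0.02 and 2 at an unadjusted p under 0.05, both lower.

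Markers of cells that are not neural were low on average in both groups. The mean over 15 microglia markers was 2.04 to 2.18 in IV ventricle and 1.93 to 2.10 in SVZ cultures, with 7 of the 15 at or under the guide level. The 11 endothelial markers averaged 2.16 to 2.19 and 2.09 to 2.26, and the 17 mural and fibroblast markers averaged 2.32 to 2.52 and 2.52 to 2.58. None of the markers on these lists was called. Choroid plexus, the secretory tissue of the ventricles, averaged 2.56 to 3.15 over 15 markers in IV ventricle and 2.42 to 2.46 in SVZ cultures, and 1 of the 15, Sostdc1, was called higher. Its defining gene Ttr, the thyroxine carrier transthyretin, read 3.34 to 3.47 and 3.31 to 3.52, without a difference beyond the spread. Ecrg4, also on this list, read 6.10, 8.12 and 5.53 in IV ventricle cultures and 2.93, 2.67 and 2.52 in SVZ cultures. The groups did not overlap there, but Ecrg4 was not called (3.87 ± 0.97, adjusted p = 0.142). At an unadjusted p under 0.05, 2 of the 15 were higher and 1 lower.

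One IV ventricle culture stood apart from the others. Replicate 2 lay at least 2 log2 units from both other IV ventricle cultures at 81 genes, 25 higher and 56 lower, against 0 to 4 genes for each of the other 5 cultures. The Euclidean distance over all genes between IV ventricle cultures was 34.2 between replicates 1 and 3, but 59.4 and 57.9 from these to replicate 2. Between SVZ cultures it was 33.7 to 37.7. Of the 79 of these genes with an established symbol, 0 were called between IV ventricle and SVZ, beside 0.764% of all genes. They were picked for a wide spread among the IV ventricle cultures, which makes a call harder, so that count does not bear on region. Leaving out replicate 2 raised the number of called genes from 139 to 181, of which 114 were among the 139. The sex of the cultures was mixed and did not follow the region. The Y-linked Eif2s3y read 4.75, 6.34 and 6.03 in IV ventricle and 1.25, 6.31 and 6.13 in SVZ cultures, and Xist, the RNA of the inactive X, was lowest in replicate 2 of both (3.28 and 3.14). The date mark in the sample name of replicate 2 occurs on no other NSC array, so that mark and this culture cannot be told apart.

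The genes at which replicate 2 differed included regional transcription factors. En1, a homeobox gene of the border between midbrain and hindbrain, read 0.83, 5.58 and 2.49 in IV ventricle cultures 1 to 3, against 0.96 to 1.04 in the SVZ. Otx2 read 1.72, 6.44 and 2.13, and the ephrin ligand Efna5 read 3.03, 9.50 and 3.46. Replicate 2 was thus the high IV ventricle culture for all 3 genes, and at each the other IV ventricle cultures lay below the cerebellar NSC. Cerebellar NSC read 4.14 to 5.40 at En1, 4.46 to 5.07 at Otx2 and 7.19 to 8.94 at Efna5. SVZ cultures read 4.23 to 4.92 at Otx2 and 3.51 to 3.58 at Efna5. In the other direction Zic1 read 8.58, 5.16 and 8.51, and the Notch effector Hes5 read 6.63, 3.69 and 7.23. The astrocyte markers Aldoc (11.41, 8.87 and 11.48), Aqp4 (5.01, 2.52 and 4.88) and Fgfr3 (8.07, 5.05 and 7.65) were also lowest in replicate 2. Of 79 genes of this kind with an established symbol, 45 had the cerebellar mean on the side of replicate 2 and 11 the SVZ mean. These genes were picked by their values and are described without a test.

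**Figure D2:**
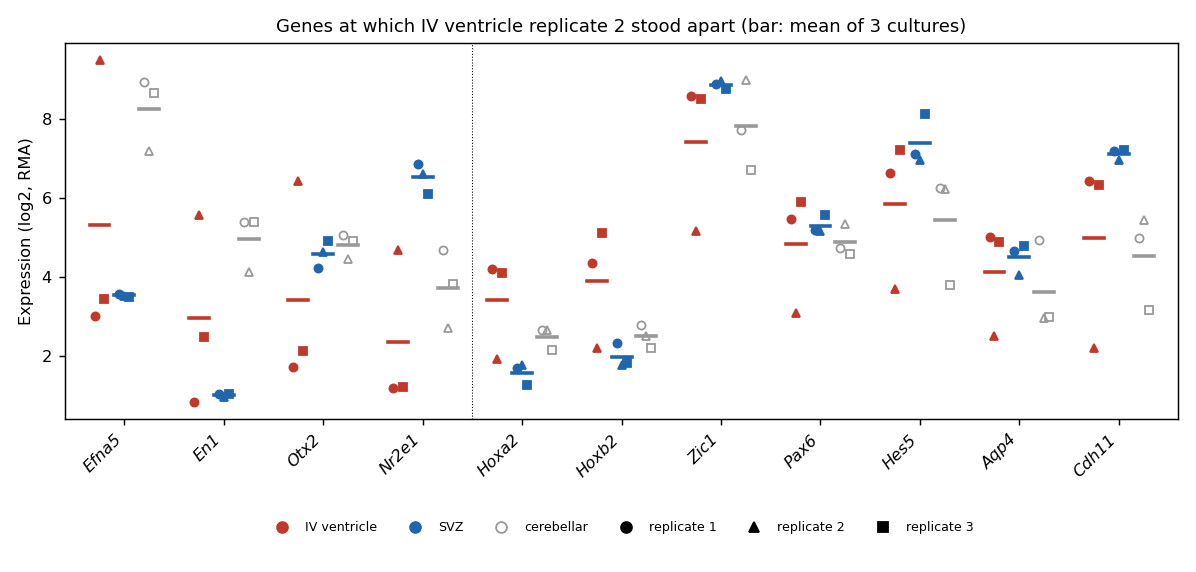
Expression (log2, vertical axis) of 11 genes in the 3 cultures of each region, with region by colour, replicate by symbol and the mean of 3 cultures as a bar. The triangle of IV ventricle replicate 2 lies above the other IV ventricle cultures for Efna5 (9.50), En1 (5.58), Otx2 (6.44) and Nr2e1 (4.69), left of the dotted line, and below them for the 7 genes to its right.

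A few transcription factors of the forebrain were much lower in IV ventricle NSC. Of 36 measured factors 5 were called lower (Emx2, Lhx2, Six3, Dmrta2 and Gsx1) and 1 higher (Nr2f1), and 8 were at or under the guide level in both groups. The list's median was -0.14, beside 0.01 over all genes, with 26 of 36 below 0. At an unadjusted p under 0.05, 2 were higher and 10 lower, beside 864 and 866 of all 18194 genes. Without IV ventricle replicate 2, 5 were again called lower and 1 higher, but Nr2e1 took the place of Gsx1. The list was drawn up with results of these data known, so its direction is not independent evidence.

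Six3, which keeps the anterior forebrain free of posteriorizing Wnt signals, read 3.37, 3.12 and 3.09 in IV ventricle cultures 1 to 3 and 5.99, 6.44 and 5.21 in SVZ cultures 1 to 3. All IV ventricle cultures were low and the groups did not overlap. The difference was -2.68 ± 0.25 (6.43-fold lower, adjusted p = 0.00173). Of its 3 probe sets 2 pointed this way, and the other differed by 0.11. Six3os1, the antisense transcript that starts beside Six3, read 1.08, 1.16 and 1.05 against 5.38, 5.38 and 5.55. Its IV ventricle mean lay at the level of probe sets without signal, which makes it lower by at least 3.77 (adjusted p = 6.54e-08), and it had the smallest p of all genes tested.

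Emx2, which patterns the cortical primordium, read 1.47, 1.48 and 3.12 in IV ventricle cultures and 5.91, 6.10 and 6.06 in SVZ cultures. Replicate 3 was the highest of the IV ventricle cultures, and the difference was -4.0 ± 0.38 (adjusted p = 0.00173). Its antisense neighbour Emx2os read 2.15, 1.85 and 2.24 against 3.03, 3.23 and 2.89. That smaller difference of -0.97 ± 0.15 was also called (adjusted p = 0.0212), though not without IV ventricle replicate 1, SVZ replicate 1 or SVZ replicate 2 (adjusted p = 0.0641 to 0.113). Lhx2, a LIM homeobox gene needed for eye and cortex, read 3.60, 2.10 and 3.09 against 6.95, 7.32 and 6.16, a difference of -3.88 ± 0.42 (14.7-fold, adjusted p = 0.00354). Six3, Six3os1, Emx2 and Lhx2 were called in each of the 6 fits that left out 1 culture. Emx2 and Emx2os lost their calls in the wider fit (adjusted p = 0.0911 and 0.226), and Lhx2 and Emx2os within the shared date mark (adjusted p = 0.0539 and 0.185).

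The remaining forebrain factors were less firm. Dmrta2, a cortical patterning factor that acts upstream of Emx2, read 2.44, 2.41 and 2.12 against 4.36, 4.95 and 3.65 (-1.99 ± 0.27, adjusted p = 0.0107), and missed the threshold only without SVZ replicate 1 (adjusted p = 0.0597). Gsx1, a factor of the ventral ganglionic eminences, read 2.39, 2.56 and 2.68 against 3.35, 3.70 and 4.03 (-1.15 ± 0.21, adjusted p = 0.0379). Gsx1 lost its call in every leave-out except that of SVZ replicate 1 (adjusted p = 0.0729 to 0.165), and with replicate number entered as a block (adjusted p = 0.0652). Nr2f1, an orphan nuclear receptor, went the other way at 8.48, 8.14 and 8.33 against 7.14, 7.13 and 7.54 (1.05 ± 0.17, adjusted p = 0.0239). Its call held only without IV ventricle replicate 2 or SVZ replicate 3, with adjusted p = 0.0893 to 0.129 in the other leave-outs, and was lost with the block (adjusted p = 0.0518). Dmrta2 and Gsx1 were not called in the wider fit (adjusted p = 0.210 and 0.300) or within the shared date mark (adjusted p = 0.0526 and 0.411).

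Nr2e1, the orphan receptor Tlx that maintains adult neural stem cells, had the largest difference of any gene that was not called. It read 1.19, 4.69 and 1.21 in IV ventricle cultures and 6.86, 6.61 and 6.10 in SVZ cultures, a difference of -4.17 ± 0.85 (adjusted p = 0.0716). Without replicate 2 both remaining IV ventricle cultures lay at the level of probe sets without signal, and Nr2e1 was lower by at least 4.86 (adjusted p = 0.00252). The cerebellar cultures read 4.68, 2.70 and 3.82, between the SVZ cultures and IV ventricle replicates 1 and 3.

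**Figure D3:**
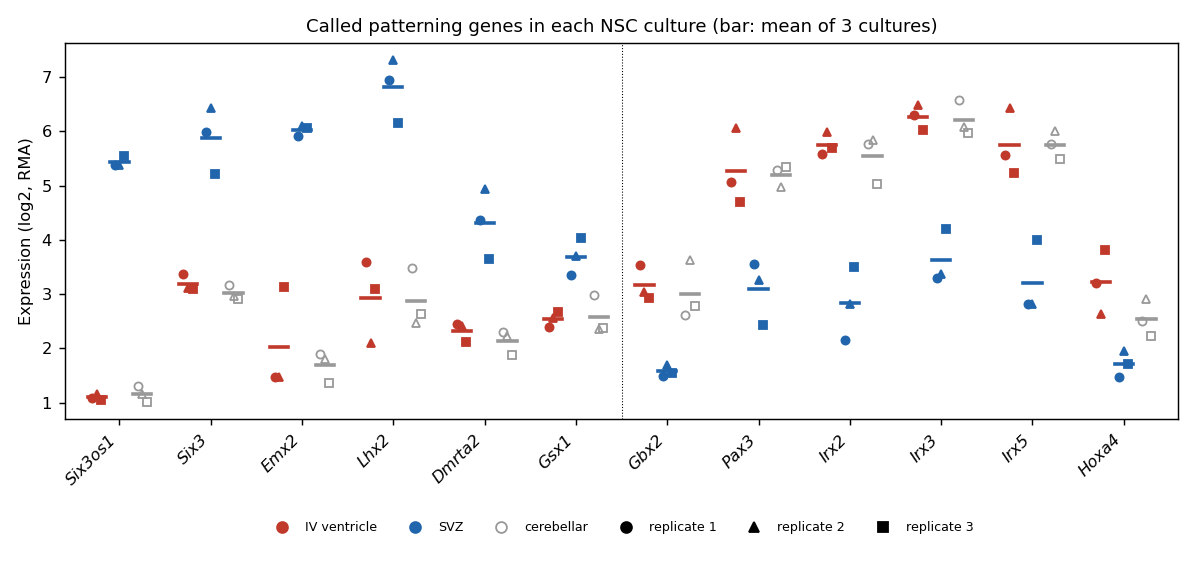
Expression (log2, vertical axis) of 12 called patterning genes in each NSC culture, with region by colour, replicate by symbol and the mean of 3 cultures as a bar. The 6 genes left of the dotted line were lower and the 6 to its right higher in IV ventricle than in SVZ cultures, from Six3os1 (1.05 to 1.16 against 5.38 to 5.55) to Hoxa4 (2.64 to 3.82 against 1.47 to 1.95).

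The Iroquois homeobox genes, which divide the neural plate into regions, lie in 2 genomic clusters. All 6 were measured and 3 were called higher in IV ventricle NSC (Irx2, Irx3 and Irx5), with a median difference of 1.98. Irx3 read 6.30, 6.48 and 6.03 in IV ventricle cultures and 3.30, 3.37 and 4.20 in SVZ cultures, so that SVZ replicate 3 came nearest. The difference was 2.65 ± 0.25 (6.25-fold, adjusted p = 0.00173). Irx2 read 5.59, 5.98 and 5.69 against 2.16, 2.82 and 3.50 (2.93 ± 0.32, adjusted p = 0.00354), again with SVZ replicate 3 the highest of its group. Irx2 and Irx3 were called in each of the 6 leave-outs.

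Irx5 read 5.56, 6.44 and 5.23 against 2.82, 2.81 and 4.0 (2.53 ± 0.37, adjusted p = 0.0143), a call lost without SVZ replicate 1 (adjusted p = 0.0749) or 2 (adjusted p = 0.0870). Irx1 read 5.09, 4.58 and 5.09 against 2.81, 3.71 and 3.95, which did not pass (1.43 ± 0.35, adjusted p = 0.134). Irx4 and Irx6 differed by 0.12 and 0.01 and lay between 1.75 and 2.33 in all 6 cultures. Irx3 and Irx5 belong to 1 cluster with Irx6, and between them in the gene order lies Crnde, a long non-coding RNA. Crnde read 4.89, 4.58 and 4.66 against 2.76, 2.86 and 3.61 (1.63 ± 0.20, adjusted p = 0.00663) and was called in each leave-out. Among 138 called genes with a place in the mouse gene order, 5 adjacent pairs were called. These were Irx3 with Crnde, Crnde with Irx5, Six3os1 with Six3, Emx2os with Emx2 and Baiap2 with Aatk, each pair moving the same way. Baiap2 and Aatk both lost their calls without SVZ replicate 1 or 2, and Aatk also without SVZ replicate 3 or IV ventricle replicate 1 (adjusted p = 0.0579 to 0.0944). Both also lost them within the shared date mark (adjusted p = 0.122 and 0.434), and Aatk in the wider fit (adjusted p = 0.146).

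The 250 bases upstream of the start of 4 genes from these pairs are shown to set the neighbours side by side, from RefSeq on GRCm38.p6 in each gene's own direction. Capitals mark the GC box GGGCGG or its reverse complement, a site that many CpG-rich promoters hold. Six3 lies on the plus strand at chr17:85620584-85620833 and Six3os1 on the minus strand at chr17:85618397-85618646, while Irx3 at chr8:91801655-91801904 and Crnde at chr8:92356121-92356370 both lie on the minus strand.
Six3: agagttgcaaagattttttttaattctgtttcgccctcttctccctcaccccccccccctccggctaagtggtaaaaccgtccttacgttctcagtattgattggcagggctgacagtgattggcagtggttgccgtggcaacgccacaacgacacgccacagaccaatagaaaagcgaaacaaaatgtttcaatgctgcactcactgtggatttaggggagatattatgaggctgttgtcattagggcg
Six3os1: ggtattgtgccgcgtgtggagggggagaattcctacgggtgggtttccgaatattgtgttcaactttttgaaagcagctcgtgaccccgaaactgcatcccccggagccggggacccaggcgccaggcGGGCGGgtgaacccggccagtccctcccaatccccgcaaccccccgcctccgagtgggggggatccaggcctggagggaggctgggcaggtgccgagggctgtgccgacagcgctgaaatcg
Irx3: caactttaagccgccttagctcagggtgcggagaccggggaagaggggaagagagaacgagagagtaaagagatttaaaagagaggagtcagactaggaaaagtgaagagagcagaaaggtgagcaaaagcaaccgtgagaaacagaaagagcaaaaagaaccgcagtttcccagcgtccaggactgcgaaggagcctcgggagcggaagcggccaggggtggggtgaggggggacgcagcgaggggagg
Crnde: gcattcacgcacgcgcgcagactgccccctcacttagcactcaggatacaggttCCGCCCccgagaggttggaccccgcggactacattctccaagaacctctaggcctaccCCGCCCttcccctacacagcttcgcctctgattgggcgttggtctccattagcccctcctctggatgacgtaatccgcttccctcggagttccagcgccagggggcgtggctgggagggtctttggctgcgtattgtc
The windows of Six3os1 and Crnde hold the GC box, 1 and 2 times, and those of Six3 and Irx3 do not. CG dinucleotides number 10 in Six3, 19 in Six3os1, 13 in Irx3 and 17 in Crnde, beside a median of 13 over the 14453 tested genes with a window. Of the 139 called genes 106 had a window. On either strand, GGGCGG occurred in 32 of 46 higher genes (69.6%) and 38 of 60 lower genes (63.3%), beside 53.4% of all tested genes. The TATA box TATAAA occurred in 4 of the higher (8.70%) and 10 of the lower genes (16.7%), beside 10.5%. The homeodomain core TAATTA occurred in 3 (6.52%) and 2 (3.33%), beside 3.83%. These are matches of letters and were not tested.

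Few of the other midbrain and hindbrain factors differed. Of 30 measured, 2 were called higher (Gbx2 and Pax3) and 0 lower, with a median of 0.08 and 7 at or under the guide level. Gbx2, which sets the front edge of the hindbrain against Otx2, read 3.53, 3.03 and 2.93 in IV ventricle cultures and 1.49, 1.69 and 1.55 in SVZ cultures. The SVZ values lay at the level of probe sets without signal, so Gbx2 was higher by at least 1.5 (adjusted p = 0.0214). Pax3, a factor of the dorsal neural tube and neural crest, read 5.06, 6.06 and 4.70 against 3.56, 3.26 and 2.44 (2.19 ± 0.36, adjusted p = 0.0244). Both calls were lost without IV ventricle replicate 1 or any 1 of the SVZ cultures, at adjusted p = 0.0727 to 0.107 for Gbx2 and 0.0520 to 0.101 for Pax3. Within the shared date mark neither was called (adjusted p = 0.255 and 0.0669), nor was Pax3 in the wider fit (adjusted p = 0.167). Without IV ventricle replicate 2 the list gained Nkx6-1 (0.76, adjusted p = 0.0374) and Mecom (at least 0.73, adjusted p = 0.0164) as higher and Otx2 as lower. Otx2 then differed by -2.67 (adjusted p = 0.00252), whereas with all cultures it differed by -1.17 ± 0.99 (adjusted p = 0.828).

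Hox genes, whose order along the body axis includes the hindbrain, depended on the same culture. Of 26 measured Hox genes 1 was called higher, Hoxa4, with a median of 0.09. Hoxa4 read 3.21, 2.64 and 3.82 in IV ventricle cultures and 1.47, 1.95 and 1.72 in SVZ cultures (1.51 ± 0.28, adjusted p = 0.0470). That call held in 1 of 6 leave-outs, the one without IV ventricle replicate 2, and was otherwise lost (adjusted p = 0.0996 to 0.200), also with the replicate block (adjusted p = 0.0801). It was also lost in the wider fit (adjusted p = 1.00) and within the shared date mark (adjusted p = 0.171). Without replicate 2, when 0.539% of all genes were called higher and 0.456% lower, 5 Hox genes were called higher. They were Hoxa4 with Hoxa2, Hoxa3, Hoxb2 and Hoxb3, which are expressed in the rhombomeres of the hindbrain. Hoxa2 read 4.22, 1.92 and 4.10 against 1.69, 1.77 and 1.27, so that replicate 2 alone lay beside the SVZ cultures. Hoxb2 read 4.35, 2.22 and 5.13 against 2.34, 1.79 and 1.81, and Hoxa3 read 4.55, 2.79 and 4.75 against 1.81, 1.86 and 2.60. Without replicate 2 the differences were at least 2.49 for Hoxa2 (adjusted p = 0.00103), whose SVZ mean lay at the level without signal, 2.76 for Hoxb2 (adjusted p = 0.00285) and 2.56 for Hoxa3 (adjusted p = 0.00315). With it they were at least 1.75 for Hoxa2, 1.92 for Hoxb2 and 1.94 for Hoxa3 and were not called (adjusted p = 0.193, 0.265 and 0.118).

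The Wnt pathway, in which secreted ligands act through Frizzled receptors, had 2 called members on each of 2 lists. Of 42 ligands, receptors and secretion factors 2 were called higher (Wls and Fzd9) and 0 lower, with a median of 0.00. Of 27 antagonists and targets 2 were called higher (Rnf43 and Sostdc1) and 0 lower, with a median of 0.04. At an unadjusted p under 0.05, 4 of the 42 were higher and 3 lower, and 5 of the 27 were higher and 3 lower. Over all 18194 genes these counts were 864 and 866. The Frizzled ligand gene Ndp, called lower and given under other observations, was on neither list. Wls, the carrier that brings Wnt ligands to the cell surface, read 6.98, 7.47 and 7.13 in IV ventricle cultures and 2.47, 3.15 and 5.15 in SVZ cultures. The SVZ cultures differed among themselves more than the IV ventricle cultures did, with replicate 3 the highest. The difference of 3.60 ± 0.57 (adjusted p = 0.0214) was 4.38 without SVZ replicate 3 (adjusted p = 0.000962). It was also called without IV ventricle replicate 2, while the other 4 leave-outs gave adjusted p = 0.0659 to 0.120. The receptor gene Fzd9 read 8.73, 8.50 and 8.52 against 7.49, 7.71 and 7.50, a 2.02-fold difference (adjusted p = 0.00252) that was called in each leave-out. Fzd9 was not called in the wider fit (adjusted p = 0.844) or within the shared date mark (adjusted p = 0.0940).

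Rnf43, a ubiquitin ligase that removes Frizzled receptors and is itself a Wnt target, read 4.07, 5.10 and 4.07 against 1.92, 2.06 and 2.39 (2.29 ± 0.29, adjusted p = 0.00770, called in each leave-out). Sostdc1, a secreted antagonist of Wnt and BMP signals that choroid plexus also makes, read 5.41, 5.49 and 4.27 against 2.12, 2.98 and 3.13 (2.31 ± 0.38, adjusted p = 0.0252). It kept its call only without IV ventricle replicate 3, and the other leave-outs gave adjusted p = 0.0532 to 0.107. Rnf43 and Sostdc1 lost their calls in the wider fit (adjusted p = 0.375 and 0.300), and Sostdc1 within the shared date mark (adjusted p = 0.145). Axin2, the general feedback target of the pathway, read 6.98, 6.60 and 6.48 against 6.05, 6.05 and 5.76. It did not pass (0.73 ± 0.17, adjusted p = 0.118), but it did with replicate number entered as a block (adjusted p = 0.0253).

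Secreted matrix proteins gave the largest difference between the cultures. Sparcl1, an extracellular glycoprotein of astrocytes and radial glia that acts on synapse formation, read 9.28, 9.61 and 8.35 in IV ventricle cultures and 4.02, 3.02 and 3.34 in SVZ cultures. All IV ventricle cultures were high, and the difference of 5.62 ± 0.47 is 49.2-fold (adjusted p = 0.00114, called in each leave-out). Within the shared date mark it missed the threshold (adjusted p = 0.0687). It was the only called member of 12 Bergmann glia and cerebellar markers, whose median was -0.13. Of 46 matricellular proteins and proteoglycans 3 were called higher (Sparcl1, Spon1 and Smoc1) and 1 lower (Tnr), with a median of -0.05.

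Spon1, the floor plate adhesion protein F-spondin, read 9.38, 9.03 and 9.02 against 7.12, 7.23 and 8.08 (1.67 ± 0.22, adjusted p = 0.0100), and lost its call without SVZ replicate 2 (adjusted p = 0.0640). Smoc1, a SPARC-related calcium-binding protein, read 9.55, 9.56 and 9.26 against 8.15, 8.16 and 8.45 (1.20 ± 0.15, adjusted p = 0.00691). Tnr, the tenascin of perineuronal nets, was lower at 3.45, 3.26 and 3.53 against 4.47, 4.89 and 4.48 (-1.20 ± 0.19, adjusted p = 0.0208). The Tnr call held only without IV ventricle replicate 2 (other leave-outs, adjusted p = 0.0541 to 0.106). In the wider fit Spon1, Smoc1 and Tnr were not called (adjusted p = 0.618, 0.861 and 1.00), and within the shared date mark Smoc1 and Tnr were not (adjusted p = 0.133 and 0.438).

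Sulf1, which strips sulfate groups from heparan sulfate chains outside the cell, read 1.80, 1.37 and 2.13 in IV ventricle cultures and 4.10, 4.70 and 4.12 in SVZ cultures (-2.54 ± 0.21, adjusted p = 0.00113). It was called in each leave-out, and 1 of its 3 probe sets pointed the other way by 0.15. Hs2st1, which adds sulfate in the Golgi, differed by -0.72 ± 0.11 (adjusted p = 0.0214), a gene named here after its value was seen. Its call held only without IV ventricle replicate 2 or 3 (other leave-outs, adjusted p = 0.0608 to 0.121). Hs2st1 was not called within the shared date mark (adjusted p = 0.346). Hs6st2, a further sulfotransferase, read 5.30, 7.35 and 5.26 against 3.02, 3.15 and 3.98, and its difference of 2.59 ± 0.53 did not pass with all cultures (adjusted p = 0.0694) but did without IV ventricle replicate 2 (1.90, adjusted p = 0.0325). Of 57 collagens, laminins and integrins 0 were called, with 9 higher and 7 lower at an unadjusted p under 0.05.

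**Figure D4:**
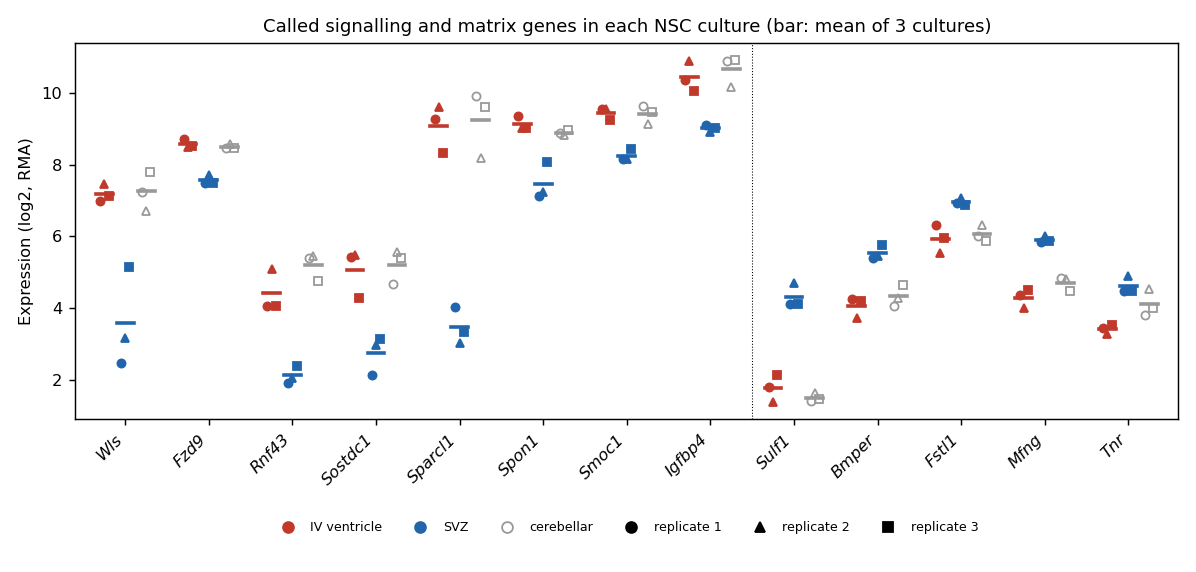
Expression (log2, vertical axis) of 13 called signalling and matrix genes in each NSC culture, with region by colour, replicate by symbol and the mean of 3 cultures as a bar. The 8 genes left of the dotted line were higher and the 5 to its right lower in IV ventricle than in SVZ cultures, with the widest gap at Sparcl1 (8.35 to 9.61 against 3.02 to 4.02).

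In the Notch pathway, which holds progenitors undifferentiated through contact with neighbouring cells, 1 of 29 members was called lower and 0 higher (median -0.06). Mfng, a Fringe enzyme that adds sugars to Notch receptors and so changes which ligands they answer, read 4.37, 3.99 and 4.51 against 5.85, 6.01 and 5.87 (-1.62 ± 0.15, adjusted p = 0.00169, called in each leave-out). In the wider fit Mfng was not called (adjusted p = 0.577). The effectors Hes1 and Hes5 differed by -0.72 ± 0.21 and -1.56 ± 0.91 and were not called (adjusted p = 0.233 and 0.695).

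Of the 43 listed members of the BMP and TGF-beta pathway 2 were called lower and 0 higher (median -0.01), both of them secreted proteins that bind or modulate the ligands. Sostdc1, the antagonist of Wnt and BMP signals that was called higher, was counted with the Wnt antagonists and not here. Bmper read 4.26, 3.73 and 4.20 against 5.40, 5.46 and 5.77 (-1.48 ± 0.19, adjusted p = 0.00770), and was called in each leave-out. Fstl1 read 6.31, 5.53 and 5.95 against 6.95, 7.08 and 6.89 (-1.04 ± 0.19, adjusted p = 0.0406). Its call was lost without IV ventricle replicate 3 or any 1 of the SVZ cultures (adjusted p = 0.109 to 0.191) and with the replicate block (adjusted p = 0.0629). Neither gene was called in the wider fit (adjusted p = 0.756 for Bmper and 0.967 for Fstl1) or within the shared date mark (adjusted p = 0.0840 and 0.411).

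Growth factor pathways had few called members. Of 14 insulin-like growth factor (IGF) genes 2 were called higher, Igfbp4 and Igf1r (median 0.05). At an unadjusted p under 0.05, 3 of the 14 were higher and 1 lower. Igfbp4, a binding protein that holds IGFs away from their receptor, read 10.37, 10.90 and 10.07 against 9.11, 8.93 and 9.03 (1.42 ± 0.24, adjusted p = 0.0276), and the receptor gene Igf1r read 7.16, 7.27 and 7.13 against 6.43, 6.50 and 6.49 (0.71 ± 0.13, adjusted p = 0.0470). Neither call was firm: Igfbp4 lost it without IV ventricle replicate 1 or any 1 of the SVZ cultures (adjusted p = 0.0826 to 0.140), Igf1r in all 6 leave-outs (0.105 to 0.193), and both with the replicate block (adjusted p = 0.0566 and 0.0657). Of 33 fibroblast growth factor genes 8 were higher and 2 lower at an unadjusted p under 0.05, beside 864 and 866 of all 18194 genes. Only 1 of the 33 was called, as higher. This was Fgf12, an intracellular family member that binds sodium channels, at 5.41, 5.95 and 5.03 against 2.52, 3.50 and 3.94 (2.15 ± 0.37, adjusted p = 0.0306). Its call held only without SVZ replicate 3 (other leave-outs 0.0514 to 0.119, replicate block 0.0619, all adjusted p). Igfbp4 and Igf1r were not called in the wider fit (adjusted p = 0.356 and 0.832), and Igfbp4, Igf1r and Fgf12 were not within the shared date mark (adjusted p = 0.318, 0.582 and 0.259).

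Of 17 retinoic acid genes 15 lay above 0 and 2 below, with a median of 0.16. At an unadjusted p under 0.05, 1 was higher and 1 lower. The 1 called gene was lower, namely Aldh1a3, a retinaldehyde dehydrogenase that makes retinoic acid in ventral forebrain and eye. It read 2.27, 2.39 and 2.32 against 3.81, 2.98 and 3.34 (-1.05 ± 0.18, adjusted p = 0.0315), and was called in 1 of 6 leave-outs, that of SVZ replicate 2 (others, adjusted p = 0.0544 to 0.110). Aldh1a3 was not called in the wider fit (adjusted p = 0.509) or within the shared date mark (adjusted p = 0.541). The Hedgehog pathway, whose excess drives medulloblastoma, had 0 of 18 members called (median -0.07), with 1 higher and 3 lower at an unadjusted p under 0.05. Its receptor and target Ptch1 read 8.09 to 8.36 and 8.03 to 8.30, within the spread. Cdon, a co-receptor, read 4.57, 6.08 and 4.93 against 6.84, 6.83 and 6.97, and was called lower only without IV ventricle replicate 2 (-2.13, adjusted p = 0.0167; all cultures, -1.69 ± 0.39, adjusted p = 0.111). None of 18 EGF and ErbB genes was called.

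**Figure D5:**
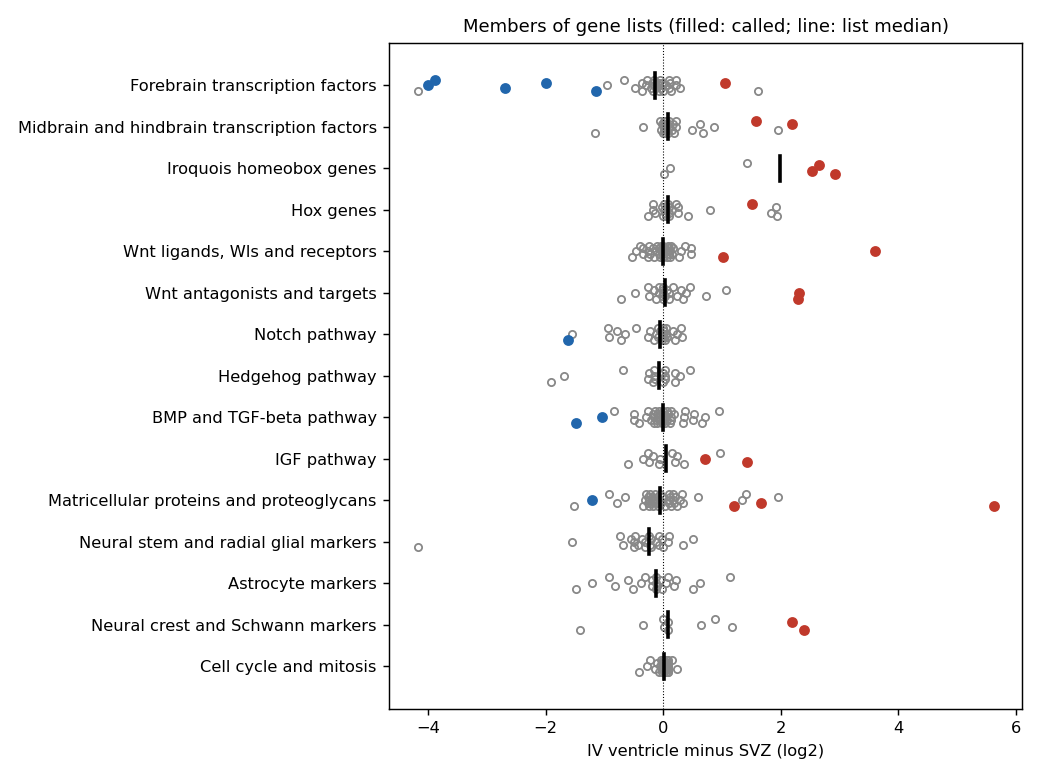
Difference between IV ventricle and SVZ means (log2, horizontal axis) of each measured member of 15 gene lists (rows), with called members filled (red higher, blue lower), others open, and the list median as a vertical line. The Iroquois median stands at 1.98, while the medians of the other 14 lists lie between -0.25 and 0.09.

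Adhesion molecules were called in both directions. Chl1, a neural adhesion molecule of the L1 family that guides axons and migrating cells, read 8.89, 8.85 and 8.77 in IV ventricle cultures and 5.93, 5.77 and 6.41 in SVZ cultures (2.80 ± 0.17, 6.97-fold, adjusted p = 0.000153). Sdk2, a synaptic adhesion molecule known from retinal layering, read 4.61, 3.92 and 4.26 against 6.65, 6.56 and 5.85 (-2.09 ± 0.24, adjusted p = 0.00435). They were the only called members of 42 immunoglobulin family molecules, and both were called in each leave-out. Of 36 cadherins and protocadherins and of 21 ephrins and Eph receptors 0 were called, with 9 and 5 genes at an unadjusted p under 0.05. Ntn1, the guidance cue netrin-1, was the only called member of 51 semaphorins, plexins, netrins and Slits. It read 8.91, 8.97 and 8.65 against 8.25, 7.98 and 8.01 (0.76 ± 0.14, adjusted p = 0.0384), and was called in none of the 6 leave-outs (adjusted p = 0.0512 to 0.189) and not with the block (adjusted p = 0.0549). Nor was Ntn1 called in the wider fit (adjusted p = 0.814) or within the shared date mark (adjusted p = 0.371).

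Anxa3 and Fndc3c1 had the largest differences among the lower genes outside the patterning factors. Anxa3, an annexin that binds membrane phospholipids in the presence of calcium, read 6.23, 5.16 and 6.12 in IV ventricle cultures and 9.37, 9.93 and 9.60 in SVZ cultures (-3.80 ± 0.46, 13.9-fold, adjusted p = 0.00594). It was the only called member of 20 annexins, S100 proteins and galectins, which had a median of -0.27. Fndc3c1, a fibronectin type III domain gene, read 6.23, 6.37 and 5.63 against 9.27, 9.48 and 9.44 (-3.32 ± 0.19, adjusted p = 0.000128). The SVZ cultures lay close together at both genes, and both were called in each leave-out, but not in the wider fit (adjusted p = 0.166 for Anxa3 and 0.530 for Fndc3c1). Epb41l4a, a FERM domain protein of the cell cortex, read 5.80, 6.29 and 5.02 against 8.14, 8.26 and 8.03 (-2.44 ± 0.30, adjusted p = 0.00594).

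The other genes at the lower end covered cytoskeleton, transport and matrix. Glipr2 (-2.17 ± 0.19, adjusted p = 0.00135) and Slc12a7, a potassium-chloride cotransporter (-1.89 ± 0.20, adjusted p = 0.00265), were called in each leave-out, as was Epb41l4a. Pcp4l1, a relative of the calmodulin-binding protein Pcp4, read 4.59, 3.33 and 4.01 against 7.27, 6.52 and 6.33 (-2.73 ± 0.44, adjusted p = 0.0234), and lost its call without IV ventricle replicate 3 or any 1 of the SVZ cultures (adjusted p = 0.0564 to 0.113). Pdlim4, a PDZ and LIM domain protein of actin fibres, differed by -1.89 ± 0.26 (adjusted p = 0.0105) and missed the threshold without SVZ replicate 1 (adjusted p = 0.0520) or 2 (adjusted p = 0.0662). Vit, a matrix protein, read 1.51 to 1.76 against 2.84 to 4.24, lower by at least 1.93 (adjusted p = 0.0143). Vit lost its call without SVZ replicate 2 and without either IV ventricle replicate 1 or 3 (adjusted p = 0.0514 to 0.0872). Plagl1, an imprinted zinc finger gene that restrains growth, was the only called member of 31 imprinted genes, at 6.47, 6.45 and 6.32 against 8.01, 8.34 and 8.14 (-1.75 ± 0.15, adjusted p = 0.00135, called in each leave-out). In the wider fit Glipr2, Slc12a7, Pdlim4, Vit and Plagl1 were not called (adjusted p = 0.0745, 0.205, 1.00, 0.300 and 0.383). Within the shared date mark Glipr2, Slc12a7, Pcp4l1, Pdlim4 and Vit were not (adjusted p = 0.103, 0.0646, 0.411, 0.0698 and 0.243).

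At the upper end, Armh4 (2.34 ± 0.29, adjusted p = 0.00663) and Sel1l3 (2.25 ± 0.22, adjusted p = 0.00190) were called in each leave-out. Tfap2a, the AP-2 factor of neural crest and dorsal neural tube, read 4.95, 6.41 and 4.88 in IV ventricle cultures and 3.19, 2.59 and 3.30 in SVZ cultures (2.39 ± 0.38, adjusted p = 0.0228). Its call was lost without any 1 of the SVZ cultures (adjusted p = 0.0607 to 0.122) and with the replicate block (adjusted p = 0.0547). Tfap2a and Pax3 were the 2 called members of 11 neural crest and Schwann markers, whose mean was 3.99 to 4.25 in IV ventricle and 3.52 to 3.66 in SVZ cultures. The crest specifier Foxd3 read 1.48 to 1.89 and 1.53 to 1.81, near the guide level in both groups. Neat1, the long non-coding RNA that scaffolds nuclear paraspeckles, read 7.62, 7.54 and 7.73 against 4.64, 5.25 and 6.19 (2.27 ± 0.40, adjusted p = 0.0336). Neat1 was called only without SVZ replicate 3 among the leave-outs (others, adjusted p = 0.0605 to 0.162). Rbms1, an RNA-binding protein (2.19 ± 0.33, adjusted p = 0.0184), and Adamtsl3, a secreted ADAMTS-like protein (2.19 ± 0.31, adjusted p = 0.0124), lost their calls without SVZ replicate 1 or 2 (adjusted p = 0.0687 to 0.101). In the wider fit Armh4, Tfap2a, Neat1 and Rbms1 were not called (adjusted p = 0.226, 0.261, 0.205 and 0.126), and within the shared date mark Tfap2a and Adamtsl3 were not (adjusted p = 0.156 and 0.0698).

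Few markers of differentiated cells were called. Of 23 astrocyte, 12 oligodendrocyte precursor, 13 oligodendrocyte and 20 neuron markers 0 were called, with 3, 1, 3 and 4 at an unadjusted p under 0.05. Gfap, the astrocyte filament, read 4.16, 3.04 and 3.28 against 5.59, 4.14 and 3.22, which overlap, and Olig2, a factor of oligodendrocyte progenitors, read 10.18 to 10.45 and 10.07 to 10.27. Elavl3, the neuronal RNA-binding protein HuC, was the only called member of 18 neuroblast markers, at 4.71, 4.72 and 4.18 against 5.78, 5.87 and 5.45 (-1.16 ± 0.18, adjusted p = 0.0205). It lost its call without SVZ replicate 1 (adjusted p = 0.101) or 2 (adjusted p = 0.111). The neurofilament genes Nefl and Nefm were lowest in IV ventricle replicates 1 and 3, and were called lower only without replicate 2 (-3.24, adjusted p = 0.0266, and -2.11, adjusted p = 0.0153). With all cultures they differed by -2.65 ± 0.60 and -1.60 ± 0.41 (adjusted p = 0.102 and 0.161). Gria2, the AMPA receptor subunit that blocks calcium entry, was the only called member of 41 neurotransmitter receptors and transporters (-0.92 ± 0.15, adjusted p = 0.0252). That call held only without SVZ replicate 2 (other leave-outs, adjusted p = 0.0541 to 0.125). Elavl3 and Gria2 were not called in the wider fit (adjusted p = 0.152 and 1.00) or within the shared date mark (adjusted p = 0.143 and 0.411). Gria4, another subunit, read 8.33, 6.29 and 8.26 against 5.51, 5.19 and 5.74, and was called higher only without IV ventricle replicate 2 (2.81, adjusted p = 0.000856; all cultures, 2.15 ± 0.46, adjusted p = 0.0877).

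Cerebellar NSC are the other hindbrain cultures of the study. Between IV ventricle and cerebellar cultures 0 of 18194 genes were called (0%), with 559 at an unadjusted p under 0.05, and without IV ventricle replicate 2 there were 7. Those 7 were Efna5, Otx2 and Alk, lower in the IV ventricle (-5.02, -2.89 and -1.08), and Hoxb2, Hoxa2, Casp1 and Col26a1, higher (2.24, 1.67, 1.43 and 1.19). Six3os1 read 1.30, 1.15 and 1.01 in cerebellar cultures 1 to 3, Emx2 read 1.90, 1.80 and 1.36, and Lhx2 read 3.49, 2.47 and 2.64. Irx3 read 6.58, 6.08 and 5.97 there, Wls read 7.24, 6.72 and 7.81, and Sparcl1 read 9.92, 8.19 and 9.62. At these 6 genes, picked from those described above, the cerebellar values lay on the IV ventricle side of all 3 SVZ cultures. At 137 of the 139 called genes the cerebellar mean lay nearer the IV ventricle mean than the SVZ mean. Among the 139 genes, the largest difference between the hindbrain cultures was that of Rnf43 (-0.79 ± 0.29, adjusted p = 1.00). This comparison shares the IV ventricle cultures with that against the SVZ, so the values are given side by side and are not independent.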

How the data were processed

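The log2 expression values were deposited by the authors after RMA, the background correction, quantile normalization and summarization of Affymetrix probes named in the submitters' processing notes, with no version given there. They were not renormalized. GEO's platform table named 1 gene for 34958 of the 45101 probe sets, several for 932 and none for 9211. Each of the resulting 18194 genes was read from its brightest probe set, by the mean of the 31 arrays. limma 3.58.1 (lmFit and eBayes) in R 4.3.3 was fitted to the 9 NSC arrays, and p-values were adjusted by Benjamini-Hochberg over all genes. The method was tested on simulated data. Members and gene lists were chosen with earlier results of these data known. Named genes were the 15 largest called differences at each end, called list members, and up to 6 further members of a list by p, with other uncalled genes added after their values were seen. Same-numbered IV ventricle and SVZ cultures deviated together (r = 0.32, 0.25 and 0.32), so they may be paired. The sample names also carry a letter, F, G or H, which goes with number 1, 2 or 3 in each NSC region. Xist was lowest in replicate 2 of all 3 regions (3.28 in IV ventricle, 3.14 in SVZ and 3.59 in cerebellar cultures). The labels do not say what the numbers or letters mark, and the main fit took no account of them. If the cultures are paired, the main fit ignores that pairing. The replicate number as a block was an alternative. Others were each culture left out, normalization, dim genes, probe set choice, prior and date marks. Adjacency and promoters came from RefSeq on GRCm38.p6.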

Additional observations from a re-analysis of the deposited data

How the results depend on the processing

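Of the 84 called genes with several probe sets, 71 had all of them pointing the same way. All 139 called differences kept their sign under every alternative fit that tested them. For fits that left out cultures or used the same values this had to be so, because the 2 groups did not overlap at these genes. The number of calls changed. It was 37 with 19 cultures in the fit, 58 within the shared date mark, 51 to 181 when 1 culture was left out, and 196 with the replicate number as a block, of which 120 were among the 139. Called list members, 35 in all, numbered 12 with 19 cultures, 23 within the shared mark, 17 to 44 without 1 culture, and 32 with the block. Forebrain factors called lower, 5 in all, numbered 2 with 19 cultures, with dim genes left out or within the shared mark, 4 to 5 without 1 culture, and 4 with the block. The 3 Iroquois calls numbered 2 to 3 without 1 culture and 3 otherwise. Against cerebellar NSC, where 0 genes were called, there were 9 with the date mark as a block, 2 within the shared mark and 0 to 7 without 1 culture. The causes were not tested. Of the 139 calls, 45 were made in all 6 leave-outs and 11 in none. Where the text gives a block value, the block ended the call, except that it made Axin2 a call. Other settings ended calls of genes already lost without some culture, and the lists that follow leave out genes named only under other observations. With the date mark as a block these were Sostdc1, Fgf12, Igfbp4, Ntn1, Igf1r, Gria2, Emx2os, Aldh1a3, Gsx1 and Tnr (adjusted p = 0.0538 to 0.123), and with the 6 arrays alone Wls, Tfap2a, Pax3, Fgf12, Hoxa4, Fstl1 and Aldh1a3 (0.0503 to 0.0744). With a trended prior they were Wls, Neat1, Fgf12, Hoxa4 and Pcp4l1 (0.0537 to 0.0825), with the mean of probe sets Neat1, Hoxa4, Ntn1 and Igf1r (0.0612 to 0.513), and with quantile normalization Hoxa4 (0.0588). Genes near the level of probe sets without signal are limited to a bound, 5 of them among the calls.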

Other observations

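The called genes in this paragraph belong to no list above and were picked once their values were known. Lower in IV ventricle NSC were Ndp, which encodes the Frizzled ligand norrin (-1.65 ± 0.22, adjusted p = 0.0100 by limma with Benjamini-Hochberg adjustment), the growth-promoting factor Mycn (-1.06 ± 0.15, adjusted p = 0.0124) and the zinc finger gene Sall1 (-0.84 ± 0.11, adjusted p = 0.00923). Dio2, which activates thyroid hormone (-1.62, adjusted p = 0.0215), was lower, while Thrsp, a thyroid hormone-responsive gene (1.45, adjusted p = 0.0294), was higher. Other higher genes were the matrix genes Fbln2 (2.02, adjusted p = 0.0131) and Edil3 (1.65, adjusted p = 0.0102), the proprotein convertase Pcsk6 (1.40, adjusted p = 0.00113) and Ank3, the ankyrin of the axon initial segment (1.66, adjusted p = 0.00569). Sall1, Pcsk6 and Ank3 were called in each leave-out. Ndp and Edil3 lost their calls without SVZ replicate 1 or 2 (adjusted p = 0.0551 to 0.0614), Fbln2 without SVZ replicate 2 (adjusted p = 0.0766), Mycn and Dio2 without SVZ replicate 1 or 2 or IV ventricle replicate 1 (adjusted p = 0.0544 to 0.113), and Thrsp in all 6 leave-outs (adjusted p = 0.0646 to 0.132). In the wider fit with 19 cultures Mycn, Sall1, Dio2, Thrsp, Fbln2, Edil3 and Ank3 were not called (adjusted p = 0.105 to 0.966), and within the shared date mark Mycn, Sall1, Dio2, Thrsp, Fbln2 and Ank3 were not (adjusted p = 0.0539 to 0.208).

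Ecrg4, a secreted peptide precursor made by choroid plexus, read 6.10, 8.12 and 5.53 in IV ventricle cultures and 2.93, 2.67 and 2.52 in SVZ cultures, and did not pass (3.87, adjusted p = 0.142). Fosb, an immediate early gene, followed the replicate number and not the region. Its level in replicate 2 was 6.43, 6.88 and 7.41 over the 3 NSC regions, against 2.12 to 3.36 in replicates 1 and 3.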
